A study of Mus musculus with 16 samples.

Results

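The genes described here are 10 textbook transcriptional targets of the tumour suppressor p53: Cdkn1a, Mdm2, Ccng1, Gdf15, Phlda3, Eda2r, Sesn2, Trp53inp1, Zmat3 and Aen. A gene was taken as measured where a probe set was annotated with that symbol alone, and the brightest such probe set over all arrays stood for the gene. By this rule 9 of the 10 were measured, of 18820 genes in all, each by 1 probe set. No probe set carried the symbol Gdf15 alone, and this gene was not analysed here.

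p53 is a transcription factor that is held at a low level by constant degradation and accumulates when DNA is damaged or when growth signalling, ribosome assembly or metabolism is disturbed. It then switches on genes that stop the cell cycle, genes that repair damage or limit oxidative stress, genes that promote cell death, and genes that feed back on p53 itself. In the liver, hepatocytes that die and are replaced by division are a setting in which p53 targets, Cdkn1a above all, are commonly followed.

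RNA came from whole livers of 16 male mice aged 7 days on a mixed C57/BL6 - SV129Ola background, 1 array per animal and 4 animals in each of 4 genotypes. The WT mice were littermates that had the floxed alleles and no Cre. TRAF2/Casp-8LPC-KO mice (the double knockout) lacked TRAF2 and caspase-8 where the alfp-Cre transgene is active, which the labels give as liver parenchymal cells; other liver cells keep both genes. TRAF2/Casp-8LPC-KO/RIPK3-/- mice (the RIPK3 triple knockout) had in addition a constitutive loss of RIPK3, the kinase that drives necroptosis. TRAF2/Casp-8/IKKβLPC-KO mice (the IKKβ triple knockout) had in addition lost IKKβ, which activates canonical NF-κB, in the same parenchymal cells. The study, by its title, asks how NF-κB bears on tumour formation after necroptosis in the liver. All values are log2 signals, so a difference of 1 is a 2-fold change, and signals of different genes were not compared with each other.

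The targeted genes were checked first. Mean Casp8 signal was 9.87 in WT and between 8.69 and 8.95 in the 3 knockouts. Ripk3 was at 4.21 in the RIPK3 triple knockout and between 5.84 and 6.03 in the other groups, and Ikbkb was at 7.19 in the IKKβ triple knockout and between 7.64 and 7.94 in the others. Traf2 went against its label, with 6.28 in WT and 7.30, 7.32 and 6.89 in the arrays labelled double, RIPK3 triple and IKKβ triple knockout; where its probes lie relative to the deleted exons is not known here, so the genotype names are those of the labels throughout. The 8 measured hepatocyte markers averaged between 12.4 and 12.7 on every array. WT replicate 1 stood apart on the second principal component (-50.5, the others -22.31 to 27.04) and had the lowest array weight, 0.461. Positions read from the array names, not checked against a plate layout, put WT and IKKβ triple knockout arrays in 1 plate column and the other 2 genotypes in another, with WT and RIPK3 triple knockout in the upper rows and the others in the lower rows, so plate position and genotype cannot be told apart.

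The promoters show which of these genes carry a half-site of the p53 motif in the 250 bases before the start of transcription. They are printed because Cdkn1a, the member with the widest range over the arrays, carries such a match, and so do Mdm2, Ccng1 and Aen. For none of these 4 genes, Cdkn1a included, did a comparison of genotypes pass the threshold. The 250 bases before each annotated start were searched for the 10-letter p53 half-site, which reads alike on both strands, so each match counts once. Whole p53 motifs, and sites outside these bases, were not searched for. RefSeq sequences (GRCm38.p6) were given for 8 of the 10 genes, in 11 windows, and 4 genes held a match, each in 1 window. No sequence was given for Zmat3 or for Trp53inp1, the member with a call. Of all 32851 RefSeq windows of this length, 7.13% held one. The matches are in capitals, and each sequence runs 5′ to 3′ in the direction of the gene.
Cdkn1a (chr17:29090729-29090978, plus strand): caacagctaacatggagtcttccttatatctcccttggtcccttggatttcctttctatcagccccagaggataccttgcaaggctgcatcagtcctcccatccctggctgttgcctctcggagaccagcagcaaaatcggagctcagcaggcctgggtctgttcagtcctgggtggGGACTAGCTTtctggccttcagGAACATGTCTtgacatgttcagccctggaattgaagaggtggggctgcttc
Mdm2 (chr10:117710759-117711008, minus strand): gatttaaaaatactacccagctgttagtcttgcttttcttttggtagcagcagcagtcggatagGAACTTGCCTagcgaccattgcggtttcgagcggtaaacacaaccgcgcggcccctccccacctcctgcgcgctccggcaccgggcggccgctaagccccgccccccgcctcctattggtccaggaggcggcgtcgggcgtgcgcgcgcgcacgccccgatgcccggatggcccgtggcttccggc
Ccng1 (chr11:40755287-40755536, minus strand): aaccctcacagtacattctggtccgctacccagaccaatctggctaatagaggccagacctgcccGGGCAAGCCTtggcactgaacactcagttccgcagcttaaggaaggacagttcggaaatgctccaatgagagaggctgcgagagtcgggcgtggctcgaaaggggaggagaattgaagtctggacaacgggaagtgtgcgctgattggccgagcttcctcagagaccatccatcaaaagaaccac
Aen (chr7:78895808-78896057, plus strand): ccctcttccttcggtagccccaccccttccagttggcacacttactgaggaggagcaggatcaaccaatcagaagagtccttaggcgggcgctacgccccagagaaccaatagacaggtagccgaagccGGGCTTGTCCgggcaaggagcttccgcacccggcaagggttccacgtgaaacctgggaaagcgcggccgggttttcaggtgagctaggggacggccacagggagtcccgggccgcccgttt
Cdkn1a had 2 matches, 73 to 64 and 51 to 42 bases before the first of its 2 annotated starts, which lie 2790 bases apart. The match lay 186 to 177 bases before the start in Mdm2, 185 to 176 in Ccng1 and 121 to 112 in Aen. The windows of Gdf15, Phlda3, Eda2r and Sesn2 held no match. A match is a description of the sequence, and binding was not measured.

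Few of the p53 targets passed the threshold between the 4 genotypes, and few of all genes did. With limma p-values adjusted over all 35556 probe sets (threshold 0.05), 1 of the 9 measured genes passed in 1 of the 6 comparisons. Trp53inp1 was 1.79-fold higher in the RIPK3 triple knockout than in WT, where 3.11% of all genes passed. In the other comparisons 0 of 9 passed, beside 0.0372% to 3.31% of all genes. Cdkn1a, which encodes the cell cycle inhibitor p21, showed the widest range, from 6.98 to 9.17, with lower means in the double and RIPK3 triple knockouts, and missed the threshold in all 6 comparisons. The other 7 genes differed by at most 0.33 between any 2 genotypes.

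**Figure D1:**
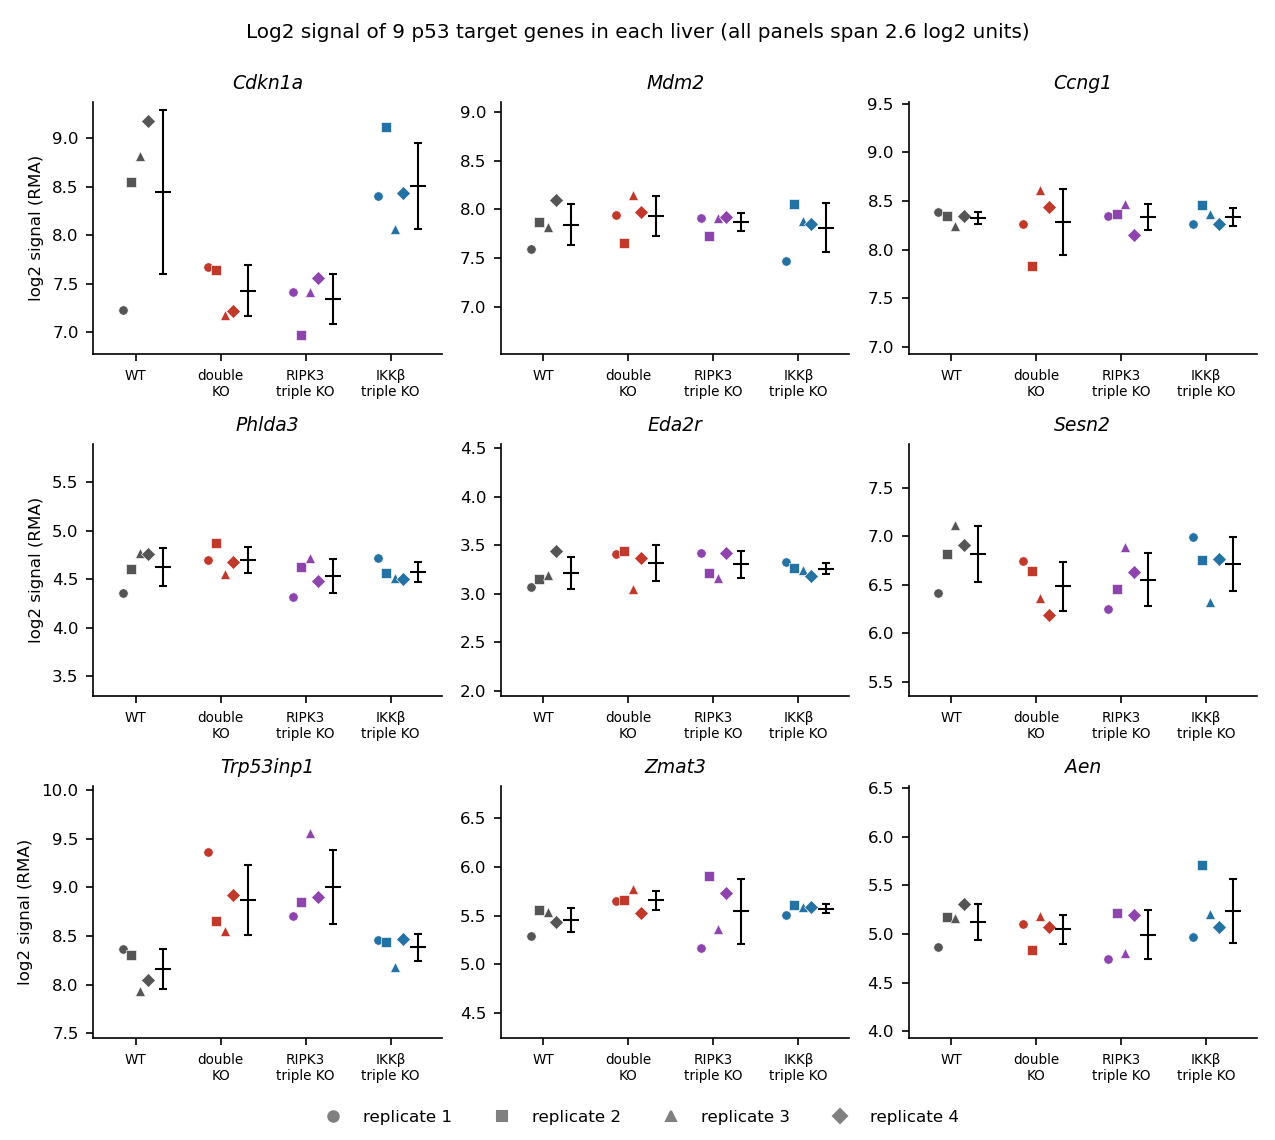
Log2 signal (vertical axes, all of the same span, centred on each gene) of the 9 measured p53 target genes in each of the 16 livers, by genotype (horizontal axes). Points are single arrays and bars are group means with SD (n = 4). Cdkn1a lies lower and Trp53inp1 higher in the double and RIPK3 triple knockouts, and the groups of the other 7 genes overlap in all 6 comparisons.

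Among the genes that act on the cell cycle, Cdkn1a had log2 signals of 7.23, 8.55, 8.81 and 9.17 in the WT replicates 1 to 4. The double knockout arrays gave 7.68, 7.64, 7.18 and 7.22, and the RIPK3 triple knockout arrays 7.42, 6.98, 7.42 and 7.56. The IKKβ triple knockout arrays gave 8.40, 9.12, 8.07 and 8.44. Every array of the double and RIPK3 triple knockouts was therefore below every array of the IKKβ triple knockout and below 3 of the 4 WT arrays, while WT replicate 1 lay among the low arrays. By the array names, the double and RIPK3 triple knockouts also lie in another plate column than WT and the IKKβ triple knockout.

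The means of Cdkn1a were 8.44 ± 0.84 in WT, 7.43 ± 0.27 in the double knockout, 7.35 ± 0.25 in the RIPK3 triple knockout and 8.51 ± 0.44 in the IKKβ triple knockout (SD, n = 4 each). The double knockout was 1.01 below WT on the log2 scale (2.02-fold, SE 0.33, limma adjusted p = 0.146). The RIPK3 triple knockout was 1.10 below WT (2.14-fold, adjusted p = 0.11). The IKKβ triple knockout was 1.08 above the double knockout (2.11-fold, adjusted p = 0.222) and 1.16 above the RIPK3 triple knockout (2.24-fold, adjusted p = 0.101), and the groups did not overlap in either comparison. The double and RIPK3 triple knockouts differed by -0.08, and the IKKβ triple knockout and WT by 0.07. None of the 6 differences passed the threshold after adjustment.

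One WT liver decides how the comparison with WT reads for Cdkn1a. Without WT replicate 1 the difference from WT was -1.42 in the double knockout (adjusted p = 0.0043) and -1.50 in the RIPK3 triple knockout (adjusted p = 0.00282), both past the threshold. The same array was the lowest WT array for 7 of the 9 genes. The share of all genes that were lowest there was not computed, so this count is not specific to p53 targets. The median over all probe sets, 4.973, was also the lowest among the WT arrays. WT replicate 1 also had the highest mean of 3 of the 4 blood cell marker lists among the WT arrays. The 12 neutrophil and myeloid precursor markers averaged 9.86 there and 8.19 to 8.61 in the other WT arrays, and the 11 monocyte and macrophage markers 8.90 against 7.92 to 7.97. The 9 lymphocyte markers averaged 6.02 there and 4.80 to 5.54 in the others, while the 7 erythroid markers averaged 7.45 there and 7.42 to 8.31 in the others. The part of these cells in the Cdkn1a signal was not tested. In whole tissue, fewer cells of a type and less RNA per cell cannot be told apart.

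**Figure D2:**
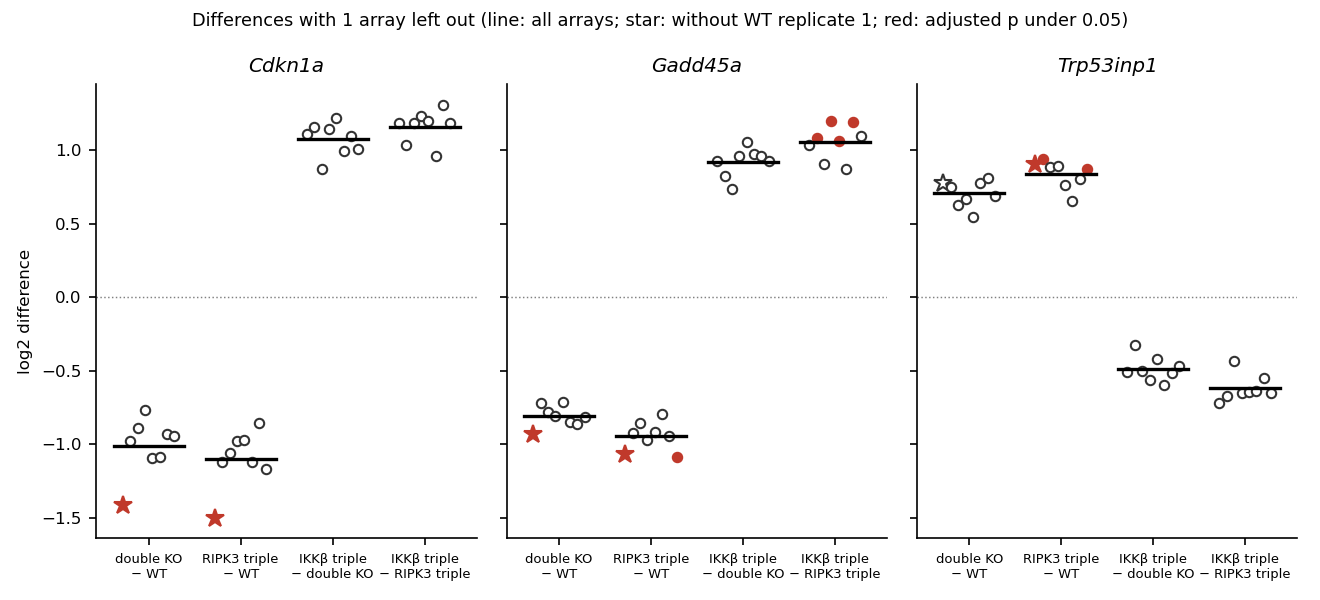
Log2 difference of Cdkn1a, Trp53inp1 and Gadd45a (panels) in 4 comparisons of genotypes (horizontal axis), with all arrays (lines) and with each array left out in turn (points, red where the adjusted p was under 0.05; the star is without WT replicate 1). Leaving out WT replicate 1 moves Cdkn1a in the double knockout from -1.01 to -1.42.

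Ccng1, which encodes cyclin G1, a regulator of the feedback on p53, had group means between 8.28 and 8.34. Its 6 differences lay between -0.042 and 0.053, and the 95% intervals reached 1.26-fold at most. The double knockout arrays spread most, from 7.83 to 8.61, and the WT arrays least, from 8.24 to 8.39. The groups overlapped in all 6 comparisons.

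Mdm2, the ubiquitin ligase that marks p53 for degradation and is itself induced by p53, had log2 signals from 7.59 to 8.09 in WT and from 7.66 to 8.15 in the double knockout. The range was 7.73 to 7.92 in the RIPK3 triple knockout and 7.47 to 8.06 in the IKKβ triple knockout. The 6 differences ran from -0.119 to 0.088, with intervals that reached 1.33-fold. The differences of Mdm2 stayed this small also where the means of Cdkn1a lay over 2-fold apart, and its groups overlapped in all 6 comparisons.

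Trp53inp1, a stress protein that promotes autophagy and p53-dependent cell death, ran the opposite way to Cdkn1a. The WT arrays gave 8.37, 8.30, 7.93 and 8.05, and the IKKβ triple knockout arrays 8.46, 8.44, 8.18 and 8.47. The double knockout arrays gave 9.36, 8.65, 8.55 and 8.92, and the RIPK3 triple knockout arrays 8.70, 8.85, 9.56 and 8.90. All 8 arrays of the latter 2 genotypes were above all 8 arrays of WT and the IKKβ triple knockout. This split is also that of the plate columns read from the array names, so genotype and column cannot be told apart. The share of all genes with such a split was not computed.

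In the RIPK3 triple knockout Trp53inp1 rose by 0.84 over WT (1.79-fold, SE 0.19, limma adjusted p = 0.0342). This call was lost without WT replicate 2, 3 or 4 or without RIPK3 triple knockout replicate 2 or 3, with adjusted p up to 0.108, and in a model of only the 2 groups (adjusted p = 0.101). In the double knockout the mean was 0.71 above WT (1.63-fold, adjusted p = 0.0757). The IKKβ triple knockout was 0.49 below the double knockout (adjusted p = 0.41) and 0.62 below the RIPK3 triple knockout (adjusted p = 0.136). The RIPK3 triple knockout and the double knockout differed by 0.13 and the IKKβ triple knockout and WT by 0.22. The comparisons with WT share the 4 WT arrays, so the likeness of their values is not independent evidence.

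Of the genes of cell death, Aen encodes a nuclease that takes part in apoptosis, Phlda3 an inhibitor of the survival kinase AKT, and Eda2r a receptor of the TNF receptor family. Group means of Aen lay between 4.99 and 5.24, of Phlda3 between 4.54 and 4.70, and of Eda2r between 3.21 and 3.32. The 18 differences of these 3 genes did not pass the threshold. Their 95% intervals reached 1.51-fold for Aen, 1.32-fold for Phlda3 and 1.25-fold for Eda2r, whose probe set was in the dimmest of 3 equal parts of all probe sets.

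Sesn2 and Zmat3 act in stress defence and RNA regulation. Sesn2, a sestrin that limits oxidative stress and mTORC1 activity, had a mean of 6.81 ± 0.29 in WT, 6.49 ± 0.25 in the double knockout, 6.55 ± 0.27 in the RIPK3 triple knockout and 6.71 ± 0.28 in the IKKβ triple knockout (SD, n = 4 each). The difference between the double knockout and WT, -0.33, was the largest among the 7 flat genes (adjusted p = 0.464), and its interval reached 1.64-fold. Without WT replicate 1 it was -0.459 (adjusted p = 0.236). Zmat3, an RNA-binding zinc finger protein, had means between 5.46 and 5.66, and its intervals reached 1.40-fold.

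Together these 7 genes gave 42 differences, from -0.33 to 0.25, and none had an unadjusted p under 0.05. The intervals bound what changes these arrays leave room for, and a p above the threshold does not show that the levels were alike.

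**Figure D3:**
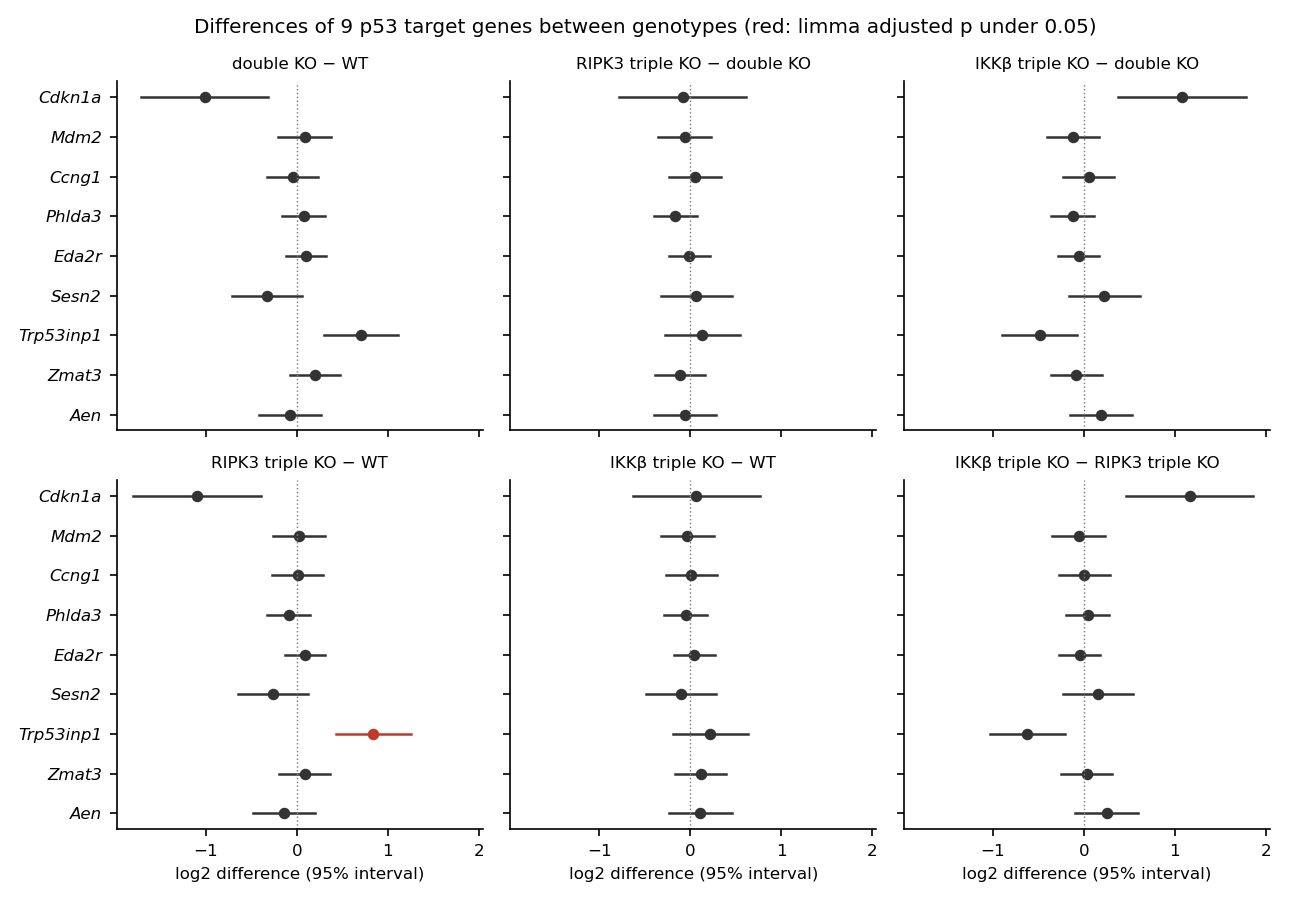
Log2 difference of each measured p53 target gene (rows) in the 6 comparisons of genotypes (panels), with 95% confidence intervals from the limma model. Trp53inp1 in the RIPK3 triple knockout against WT is the point in red, past the threshold, and the intervals of the 7 flat genes span 0.

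The counts of calls are set beside the shares of all genes. Between the double knockout and WT 0 of 9 p53 targets passed in limma, where 3.31% of the 18820 genes did, and 2 had an unadjusted p under 0.05 (16.4% of genes). Between the RIPK3 triple knockout and WT 1 of 9 passed, upward (3.11% of genes in either direction and 1.94% upward), with 2 under 0.05 unadjusted (15.6%). Between the IKKβ triple knockout and WT 0 of 9 passed in limma (0.0372% of genes), with 0 under 0.05 unadjusted (6.45%). These members are Cdkn1a and Trp53inp1 in each comparison where 2 are counted.

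Between the RIPK3 triple and double knockouts 0 of 9 passed in limma (0.329% of genes), with 0 under 0.05 unadjusted (11.1%). Between the IKKβ triple and double knockouts 0 of 9 passed (1.02%), with 2 under 0.05 unadjusted (10.7%). Between the IKKβ and RIPK3 triple knockouts 0 of 9 passed in limma (2.00%), with 2 under 0.05 unadjusted (16.7%). Groups did not overlap for 1 gene of 9 against WT in the double knockout (11.6% of genes) and in the RIPK3 triple knockout (9.08%). All 9 overlapped between the RIPK3 triple and double knockouts (6.87% of genes did not) and between the IKKβ triple knockout and WT (3.92%). They did not overlap for 2 of 9 between the IKKβ triple and double knockouts (7.48%) and between the 2 triple knockouts (9.01%). The median difference of the 9 genes was between -0.06 and 0.075 over the 6 comparisons, and that of all genes between -0.012 and 0.

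A wider list of 35 p53 targets, of which 31 were measured, gave 3 calls in the 6 comparisons. In the RIPK3 triple knockout against WT 1 rose and 1 fell (3.11% of all genes passed). Between the 2 triple knockouts 1 passed (2.00%). Tnfrsf10b, the death receptor for TRAIL, rose by 0.86 in the RIPK3 triple knockout over WT (1.81-fold, adjusted p = 0.0196), a call lost without RIPK3 triple knockout replicate 1 or 2 or WT replicate 4 (adjusted p up to 0.0583). Gadd45a, a stress protein that halts the cell cycle and takes part in DNA repair, fell by 0.94 in the same comparison (adjusted p = 0.0285) and was 1.06 higher in the IKKβ than in the RIPK3 triple knockout (adjusted p = 0.022). In the other 4 comparisons limma called 0 of the 31. Unadjusted p was under 0.05 for 9 of the 31 in the double knockout against WT (16.4% of all genes), for 7 between the RIPK3 triple and double knockouts (11.1%), for 3 between the IKKβ triple and double knockouts (10.7%) and for 4 in the IKKβ triple knockout against WT (6.45%). It was under 0.05 for 6 in the RIPK3 triple knockout against WT (15.6%) and for 6 between the 2 triple knockouts (16.7%). The list's median difference lay between -0.086 and 0.055 over the 6 comparisons.

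Gadd45a followed the order of Cdkn1a over the genotypes. Its WT arrays gave 6.77, 7.41, 7.22 and 7.14, and its IKKβ triple knockout arrays 7.23, 7.80, 6.84 and 7.13. The double knockout arrays gave 6.04, 6.44, 6.49 and 6.34, and the RIPK3 triple knockout arrays 6.13, 6.28, 5.74 and 6.62. All 8 arrays of the latter 2 genotypes lay below all 8 of the other 2, a split that is again also that of the plate columns. The double knockout was 0.81 below WT (adjusted p = 0.0603) and 0.92 below the IKKβ triple knockout (adjusted p = 0.0633). With all arrays kept, the first of these passed in 7 of 9 other settings of the analysis (adjusted p from 0.0156 to 0.0601) and the second in 3 of 9 (0.0195 to 0.135). With an array left out, the first passed in 1 of 8 cases, without WT replicate 1 (adjusted p = 0.0374, the others up to 0.176). The second passed in 0 of 8 (adjusted p from 0.0536 to 0.233). The call against WT in the RIPK3 triple knockout was lost without WT replicate 2, 3 or 4 or RIPK3 triple knockout replicate 1, 2 or 3 (adjusted p up to 0.0928) and in the model of 2 groups (0.0765). The call between the triple knockouts was lost without RIPK3 triple knockout replicate 1 or 3 or IKKβ triple knockout replicate 2 or 4 (up to 0.0745) and in the model of 2 groups (0.101).

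Among p53 and its regulators, 16 of 17 were measured and 1 passed in 1 of the 6 comparisons, the double knockout against WT. There 3.31% of all genes passed, and 2 of the 16 had an unadjusted p under 0.05 (16.4% of all genes). Mdm4, the partner of Mdm2 that blocks p53 activity, rose by 0.50 in the double knockout over WT (adjusted p = 0.0187). That call was lost without WT replicate 3 or 4 or double knockout replicate 1, 3 or 4 (adjusted p up to 0.073) and in the model of 2 groups (0.0517). In the other 5 comparisons limma called 0 of the 16, with 1 to 3 under 0.05 unadjusted (6.45% to 16.7% of all genes). The mean of Mdm4 was 0.38 above WT in the RIPK3 triple knockout (adjusted p = 0.0795).

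Of the other CDK inhibitors, all 6 were measured. Against WT 1 of 6 passed in the double knockout (3.31% of all genes), with 1 under 0.05 unadjusted (16.4%). In the RIPK3 triple knockout against WT 1 of 6 passed (3.11%), with 3 under 0.05 unadjusted (15.6%). Cdkn1c, which encodes p57, a relative of p21, fell by 0.92 in the double knockout (adjusted p = 0.0181) and by 0.90 in the RIPK3 triple knockout (adjusted p = 0.0218) against WT. The first call was lost without WT replicate 2, 3 or 4 or double knockout replicate 1 or 4 (adjusted p up to 0.0648). The second was lost without WT replicate 2, 3 or 4 or RIPK3 triple knockout replicate 1, 2 or 4 (up to 0.0764), and both in the model of 2 groups (0.0515 and 0.0598). In the other 4 comparisons limma called 0 of the 6, with 0 to 1 under 0.05 unadjusted (6.45% to 16.7% of all genes).

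The cell cycle genes, of which 22 of 24 were measured, are the process that p21 restrains. Between the 2 triple knockouts 2 of 22 passed (2.00% of all genes), both higher in the IKKβ triple knockout. An unadjusted p under 0.05 was found for 20 (16.7% of all genes). Their list had a median difference of 0.61 where the median of all genes was -0.008. E2f1, a transcription factor of S phase entry, was 0.75 higher (adjusted p = 0.00535) and Ccnd1, cyclin D1, 0.64 higher (adjusted p = 0.0168). Ccnd1 also fell against WT, by 0.54 in the double knockout (adjusted p = 0.0284) and by 0.80 in the RIPK3 triple knockout (adjusted p = 0.0024). It was the 1 call of 22 in each (3.31% and 3.11% of all genes). Unadjusted p was under 0.05 for 1 and 3 of the 22 (16.4% and 15.6% of all genes). In the 3 remaining comparisons limma called 0 of the 22, with 2 to 6 under 0.05 unadjusted (6.45% to 11.1% of all genes). The list's median difference was -0.40 between the RIPK3 triple and double knockouts, with genes from -0.57 to -0.10. It was 0.34 in the IKKβ triple knockout against WT (-0.16 to 0.56) and 0.22 against the double knockout (0.007 to 0.50). The mean of the 22 genes was 8.18 to 8.31 on 3 of the IKKβ triple knockout arrays and 7.37 on replicate 1, which lay within the 7.32 to 7.52 of the RIPK3 triple knockout. Between the same genotypes the median difference was 1.13 for the 12 neutrophil and myeloid precursor markers, of which limma called 0 with 10 under 0.05 unadjusted, and 0.98 for the 7 erythroid markers, with 0 called and 1 under 0.05 unadjusted. Their part in the cell cycle signals was not tested.

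Leaving out arrays ended some of these calls on cyclin D1. Ccnd1 in the double knockout against WT lost its call without WT replicate 2, 3 or 4 or double knockout replicate 1, 2 or 4 (adjusted p up to 0.0984). Between the triple knockouts it lost it without RIPK3 triple knockout replicate 3 or IKKβ triple knockout replicate 2 or 3 (up to 0.0648) and in the model of 2 groups (0.091). E2f1 between the triple knockouts and Ccnd1 in the RIPK3 triple knockout against WT passed with each array left out in turn.

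Sesn2 and Gdf15 also answer to the stress factor ATF4, so ATF4 targets were counted beside them. Of 17 measured ATF4 stress genes, 5 had an unadjusted p under 0.05 between the 2 triple knockouts (16.7% of all genes). There 2 passed (2.00% of all genes), both higher in the IKKβ than in the RIPK3 triple knockout. They encode enzymes of serine synthesis, Psat1 (1.23 higher, adjusted p = 0.00394) and Phgdh (1.24 higher, adjusted p = 0.00852). Phgdh fell by 0.84 in the RIPK3 triple knockout against WT at the edge of the threshold (adjusted p = 0.05, below it before rounding), and that call was lost without any 1 of 7 of the 8 arrays compared, all but RIPK3 triple knockout replicate 4 (adjusted p up to 0.138). Phgdh was the 1 call of 17 against WT there (3.11% of all genes), with 4 under 0.05 unadjusted (15.6%). In the other 4 comparisons limma called 0 of the 17, with 3 to 5 under 0.05 unadjusted (6.45% to 16.4% of all genes).

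**Figure D4:**
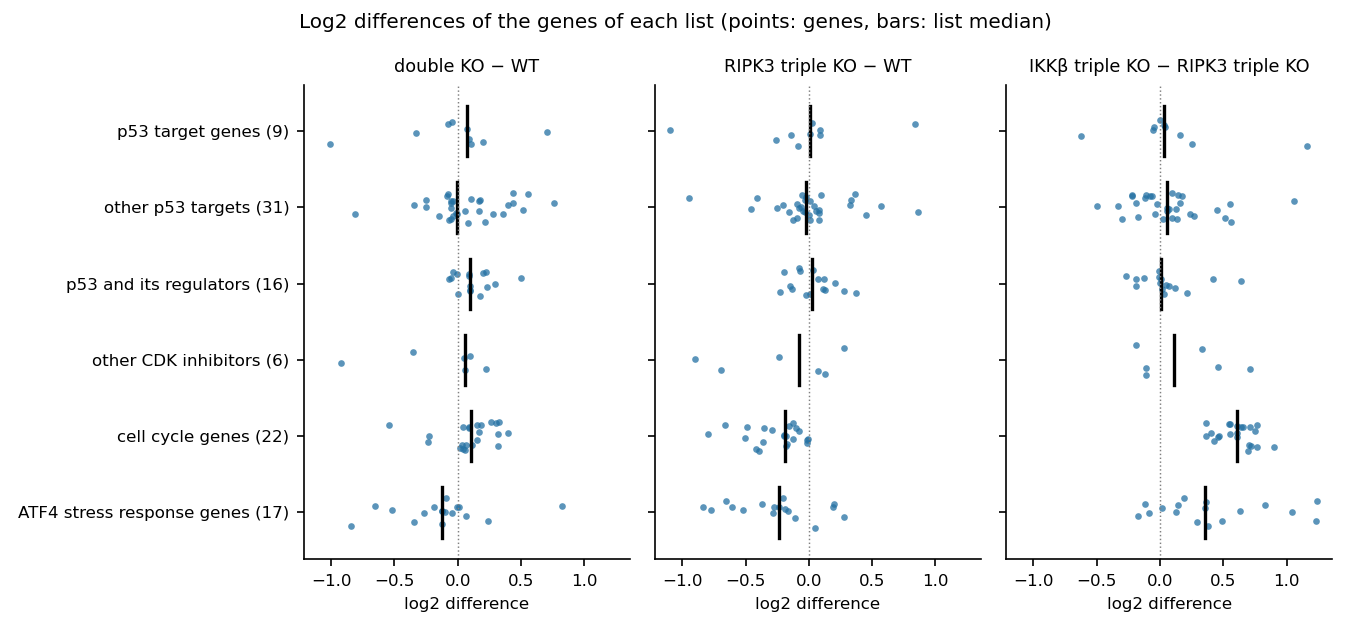
Log2 difference of each measured gene (points) of the p53 target, other p53 target, regulator, CDK inhibitor, cell cycle and ATF4 lists (rows) in 3 comparisons of genotypes (panels), with the median of each list as a bar. The cell cycle list has its highest median, 0.61, between the 2 triple knockouts.

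Marker levels of other cell types are set beside these values. The 8 measured biliary and progenitor markers averaged 4.98 to 5.20 on the WT arrays, 5.70 to 5.85 in the double knockout, 5.55 to 5.65 in the RIPK3 triple knockout and 4.96 to 5.58 in the IKKβ triple knockout. Of them 4 rose in the double knockout against WT (3.31% of all genes passed), and 2 in the RIPK3 triple knockout (3.11%). In the IKKβ triple knockout 3 were lower than in the double knockout (1.02%) and 1 was lower than in the RIPK3 triple knockout (2.00%). Between the RIPK3 triple and double knockouts 1 fell (0.329%). The 12 neutrophil and myeloid precursor markers averaged 6.67 to 8.43 in the RIPK3 triple knockout and 8.19 to 9.86 in WT. Of them 1 passed, downward (3.11% of all genes passed), and 10 had an unadjusted p under 0.05 (15.6% of all genes). Their median difference was -1.31. The 7 erythroid markers averaged 6.23 to 8.09 in the RIPK3 triple knockout and 7.42 to 8.31 in WT, and limma called 0 of them, with 1 under 0.05 unadjusted. Among the 11 monocyte and macrophage markers 1 fell between the RIPK3 triple and double knockouts (0.329% of all genes passed). Among the 9 lymphocyte markers 1 fell in that comparison and 1 in the RIPK3 triple knockout against WT (3.11%). The part of these cell types in the p53 target signals was not tested.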

How the data were processed

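Whole-liver RNA of 16 mice was hybridised to 1-colour Affymetrix arrays, 1 per animal. The deposited table holds log2 values made with RMA, per the submitters' processing notes. The version of RMA is not given in the sources used here. All 16 value columns were used and 0 were left unused. No further normalisation or filter was applied to the 35556 probe sets, of which 21218 carry 1 symbol in the platform annotation (updated through Entrez IDs), 1881 several and 12457 none. Array medians lay between 4.90 and 5.05. Precision is limited by having 4 arrays a group.

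A single linear model of the 4 genotypes was fitted with limma (version 3.58.1, R 4.3.3). It used two-sided moderated tests from eBayes and no trend, with Benjamini-Hochberg adjustment over all probe sets at 0.05. Every p and adjusted p is from this test, except where a left-out array or another setting is named. Those are from limma refitted in that setting. The procedure was tested on simulated data. Intervals are 95% confidence intervals. p-values measure the spread between animals.

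The members and lists were chosen with earlier results of these data known. Besides the members and targeted genes, each list gave up to 4 genes past the threshold per comparison, or up to 2 as values where none passed, not all of which are printed, and the 5 genes most like Cdkn1a and the 5 most like the members' mean were named. The double knockout replicate 4 has another array-name prefix and was kept. Alternatives were trend with robust eBayes, only the 2 groups compared, the lowest-signal probe sets (1 of 3 equal parts) left out, requantiling, median centring, 1 probe set per gene, array weights, replicate block, plate row as random block, and each array left out. Plots were made in Python 3.11.15 using matplotlib 3.10.9.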

Additional observations from a re-analysis of the deposited data

Results flagged for a closer look

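Within single genotypes, 2 of 40 groups of 4 arrays had an array far from the other 3, and chance alone places about 1 in 20 groups there. Mdm2 in the RIPK3 triple knockout was at 7.73 in replicate 2 and between 7.91 and 7.92 in the other 3 arrays, so the gap was 0.928 of the whole range. Trp53inp1 in the IKKβ triple knockout was at 8.18 in replicate 3 and between 8.44 and 8.47 in the others, a gap of 0.889 of the range.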

How the results depend on the processing

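The count of p53 targets past the threshold was 0 in the double knockout against WT and became 1 with 1 probe set per gene tested (Trp53inp1, adjusted p = 0.0315), 2 with array weights (Cdkn1a, 0.0177, and Trp53inp1, 0.026), and 0 to 1 with an array left out. In the RIPK3 triple knockout against WT it was 1 and became 0 in the model of only the 2 groups, 2 with array weights (Cdkn1a added, 0.0197), and 0 to 2 with an array left out. Between the IKKβ and RIPK3 triple knockouts it was 0 and became 1 with 1 probe set per gene (Cdkn1a, 0.0479). The cause of these moves was not tested. With the replicate number as a block the count in the RIPK3 triple knockout against WT was 0 (Trp53inp1, adjusted p = 0.0664). Ccnd1 in the double knockout against WT had an adjusted p of 0.0651 there. Same-numbered arrays correlated between -0.227 and 0.357 over 24 pairs, 6 of them over 0.1. Of 16 samples, 5 were nearest to their own number. The labels name no pairing, and whether same-numbered arrays were handled together was not tested.

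With array weights, Cdkn1a in the IKKβ triple knockout against WT was -0.23 and Gadd45a -0.022, opposite in sign to the values without them. With an array left out, Cdkn1a ran from -0.17 to 0.038 between the RIPK3 triple and double knockouts and from -0.34 to 0.31 in the IKKβ triple knockout against WT. Trp53inp1 between the RIPK3 triple and double knockouts ran from -0.052 to 0.30, Gadd45a from -0.28 to 0.016, and Gadd45a in the IKKβ triple knockout against WT from -0.069 to 0.25. Ccng1 between the IKKβ triple and double knockouts ran from -0.098 to 0.16. Of the 54 member differences, 26 changed sign somewhere in 966 alternative values. All 26 were at most 0.134 in size as reported. The changed values reached up to 0.427 in size, and none of them was a call. Several settings, such as the model of only the 2 groups, return the same differences as reported. Not every alternative value could therefore change sign. No member has a second probe set of its symbol alone, and Eda2r has no value once the lowest-signal probe sets (1 of 3 equal parts) are left out. Zmat3 read from a probe set that also lists another symbol, an alternative chosen after seeing the data, differed by 0.078 between the double knockout and WT against 0.20 before.

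Over all alternatives, the probe sets called ranged from 420 to 1594 in the double knockout against WT (800 as reported), 328 to 1133 in the RIPK3 triple knockout against WT (845), 1 to 28 in the IKKβ triple knockout against WT (7), 39 to 138 between the RIPK3 triple and double knockouts (94), 109 to 509 between the IKKβ triple and double knockouts (223) and 197 to 938 between the triple knockouts (567).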

Other observations

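Signals most like that of Cdkn1a over the 16 arrays, by Pearson correlation and as a description only, were those of P2ry2 (r = 0.925), Ltbr (0.91), Calml4 (0.907), Tor3a (0.894) and H1f2 (0.89). P2ry2 encodes a nucleotide receptor and Ltbr the lymphotoxin beta receptor of the TNF receptor family. The mean of the 9 measured p53 targets was most like Focad (r = 0.898), Zfp410 (0.873), Mmadhc (0.858), Exosc9 (0.853) and N6amt1 (0.85). The arrays share genotype, plate part and normalisation, so these values carry no test.

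Btg2, an antiproliferative gene induced by p53, had means of 7.18 in WT, 7.73 in the double knockout, 7.22 in the RIPK3 triple knockout and 7.67 in the IKKβ triple knockout, an order unlike that of either Cdkn1a or Trp53inp1. The difference of 0.55 between the double knockout and WT had a limma adjusted p of 0.0886, and that of -0.52 between the RIPK3 triple and double knockouts 0.261.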
